A study of Homo sapiens with 12 samples.

Results

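The comparison is of JJN3 cells that carry Cas9 and a control guide (isgCtrl) with JJN3 cells kept in the vehicle DMSO. The JJN3 line was grown from a human multiple myeloma, a tumour of antibody-secreting plasma cells. Of 59276 gene symbols in the deposited table, 12661 were taken, those whose group mean of log2(TPM+1) exceeded 1 in isgCtrl or in DMSO. TPM is a transcript's share of all transcripts in a sample, after its length is allowed for. The isgCtrl samples are 3 and the DMSO samples are 3, out of 12 samples in 4 groups.

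The isgCtrl cells were made by transducing JJN3 with a lentivirus for Cas9 and mCherry and sorting mCherry-positive cells. They were then transduced with an inducible control sgRNA, selected with puromycin and given doxycycline for 3 days. The DMSO cells are JJN3 given DMSO for 3 days. Whether the DMSO cells carry Cas9 or saw doxycycline is not given in the sources used here. Cas9, guide, sorting, puromycin, doxycycline, vehicle and the history of each culture therefore cannot be told apart. The other samples are MS023, JJN3 treated for 3 days with 10 µM of an inhibitor of type I protein arginine methyltransferases, and iPRMT1, Cas9 cells with doxycycline and a guide against PRMT1. The study's general statistics note speaks of independent experiments, but the labels do not say that these sequenced samples are separate cultures, so p-values measure only the spread between these samples, which may be technical.

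A plasma cell is the last stage of the B lineage. It makes 1 antibody in large amounts, built from a heavy chain and either a kappa or a lambda light chain, and its widened endoplasmic reticulum folds and exports that antibody. Myeloma cells arise from a single plasma cell and usually keep its light chain. A control guide directs Cas9 to no gene under study, and doxycycline, which switches the guide on, is an antibiotic that also acts on mitochondrial translation.

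The libraries stood apart in their light chains. Kappa transcripts were abundant in both groups, and summed TPM of IGKC and the IGKV genes spanned 29250 to 30900 in DMSO and 31330 to 32050 in isgCtrl. Lambda variable genes summed to between 3429 and 3646 TPM in DMSO and to between 11.1 and 42.2 TPM in isgCtrl. The other samples split in the same way, with 6303 to 6790 TPM in MS023 and 9.48 to 14.2 TPM in iPRMT1. DMSO libraries thus held transcripts of a kappa and of a lambda chain, and isgCtrl libraries were nearly without the lambda one. Whether both groups came from the same JJN3 stock is not given in the sources used here. The part of this light chain difference in the other results was not tested. Pearson's r across genes was 0.993 to 0.994 between DMSO samples, 0.995 to 0.996 between isgCtrl samples and 0.987 to 0.99 from isgCtrl to DMSO. The sum of TPM is fixed for each sample, so the depth of a sample is unknown from the files. Mitochondrially encoded genes took 4.91 to 5% of TPM in DMSO and 4.22 to 4.42% in isgCtrl.

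Many genes differed, and the falls were deeper than the rises. Of the 12661 genes, 1763 were called, that is 13.9%, at a Benjamini-Hochberg adjusted p under 0.05 in limma and an absolute log2 fold change above 0.48. In isgCtrl 915 genes were higher, which is 7.23% of those tested, and 848 were lower, which is 6.7%. Under median-ratio scaling the split was 561 higher and 1049 lower, so the balance of rises and falls depends on how the libraries are scaled. The median log2 fold change of all genes tested was 0.0661, and -0.0105 under median-ratio scaling. All fold changes are isgCtrl minus DMSO on the log2(TPM+1) scale, which makes the change of a low gene smaller.

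The median called rise was 0.6 and the median called fall was -0.83. Beyond an absolute log2 fold change of 1 there were 55 rises and 314 falls, and beyond 2 there were 2 rises and 65 falls. In 51.7% of all genes tested the 3 samples of one group did not overlap with the 3 of the other. For any single gene, 3 samples against 3 allow a two-sided exact permutation p of no less than 0.1. The fold limit cut through a dense range, with 494 called genes between 0.48 and 0.56 and 647 genes with an adjusted p under 0.05 in limma between 0.40 and 0.48. The level limit did too, with 315 genes whose higher group mean lay between 1 and 1.1 and 347 between 0.9 and 1.

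Transcripts that were present in DMSO and close to absent in isgCtrl were found in 1 direction. A total of 50 genes had a mean above 2 in DMSO and under 0.5 in isgCtrl, and 0 genes had the reverse, each on the log2(TPM+1) scale. Of the 50, 34 are protein-coding. Samples that played no part in this count showed the same 50 genes as follows: 42 were above 2 in MS023, 39 were under 0.5 in iPRMT1, and 35 met both conditions. Of all 59276 symbols, 108 met both conditions, and 2 were above 2 in iPRMT1 and under 0.5 in MS023. In bulk RNA, fewer cells of a kind and less RNA per cell cannot be told apart.

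Immunoglobulin genes hold the largest fall. IGLV2-14, a lambda variable gene, read 11.70, 11.77 and 11.79 in the DMSO samples and 4.99, 4.65 and 2.10 in the isgCtrl samples. In TPM this is a mean of 3456 against 19.4, a log2 fold change of -7.84 (standard error 0.75, adjusted p = 0.0017 in limma). The groups lay far apart, but isgCtrl replicate 3 was well below the other 2 of its group.

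IGLC1, a lambda constant gene, lies at chr22:22895375-22895834 of GRCh38. It read 10.90, 10.89 and 10.94 in DMSO and 4.79, 4.83 and 4.57 in isgCtrl, a log2 fold change of -6.18 (standard error 0.08, adjusted p = 6.05e-06 in limma). The levels were 1921 TPM in DMSO and 25.6 TPM in isgCtrl. IGLC genes are near-identical, and reads can be split between them. Summed over 8 genes, IGLC1 to IGLC7 and IGLL5, the level fell from 2341 to 2416 TPM in DMSO to 155 to 173 TPM in isgCtrl. IGLL5 itself, which shares sequence with IGLC1, fell by 1.95 on the log2 scale, and the minor lambda constant gene IGLC2 was higher by 1.11 at 7.34 TPM in DMSO and 17.1 TPM in isgCtrl. IGLC3 passed with 0.76 but lost its call without DMSO replicate 2 (adjusted p = 0.0939 in limma), DMSO replicate 3 (0.0822), isgCtrl replicate 1 (0.104) or isgCtrl replicate 3 (0.102).

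The kappa genes IGKC and IGKV3-15 and the gamma constant gene IGHG1 differed little between the groups. IGKC, the kappa constant gene, was 13.78 ± 0.02 in DMSO and 13.79 ± 0.03 in isgCtrl (SD, n = 3). The kappa variable gene IGKV3-15 was at 16103 TPM in DMSO and at 17523 TPM in isgCtrl, and was not called. IGHG1, a gamma heavy chain constant gene, was 9.16 ± 0.03 in DMSO and 9.07 ± 0.01 in isgCtrl (SD, n = 3) and was not called. IGHA1, the alpha heavy chain constant gene, averaged 0.13 in DMSO and 0.05 in isgCtrl and was too low to be tested. Further variable genes followed the lambda chain, with IGLV2-11 down by 5.79 and the heavy chain variable gene IGHV3-30 down from 2.91 to 0.06 on the log2(TPM+1) scale. Variable genes resemble each other, so reads of 1 rearranged gene may be listed under several names. JCHAIN, the joining chain of polymeric antibodies, fell from 4836 TPM in DMSO to 1972 TPM in isgCtrl, a log2 fold change of -1.29. Of 20 listed immunoglobulin constant genes and JCHAIN, 12 were tested. Of these 2 were called higher and 3 lower, against 7.23% and 6.7% of all genes.

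Plasma cell genes moved unequally. Of 14 tested markers of the 16 listed, 7 were called lower and 1 higher, against 6.7% and 7.23% of all genes. MZB1, an endoplasmic reticulum protein of B and plasma cells that helps antibody assembly, read 6.75, 6.70 and 6.75 in DMSO and 1.77, 1.56 and 1.42 in isgCtrl. Its log2 fold change was -5.15 (standard error 0.10, adjusted p = 2.43e-05 in limma). GPRC5D, an orphan receptor of plasma cells and a target of myeloma therapy, fell from 13.4 to 0.152 TPM. SLAMF7, the receptor that elotuzumab binds, fell from 9.32 to 0.369 TPM. TNFRSF13B, the receptor TACI, fell by 1.62 and CD38, the ectoenzyme that daratumumab binds, by 1.37 on the log2 scale. DERL3, a factor of protein export from the endoplasmic reticulum for degradation, fell by 0.57.

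Other defining markers stayed within the fold limit. SDC1, the plasma cell surface marker CD138, was 102 TPM in DMSO and 94.3 TPM in isgCtrl. XBP1, the transcription factor of the secretory programme, was 224 and 244 TPM. TNFRSF17, the receptor BCMA, had a log2 fold change of -0.41 (-0.49 and called under median-ratio scaling), PRDM1, which encodes Blimp-1, had 0.40, and POU2AF1, a B lineage coactivator, had 0.43. IRF4, a transcription factor on which myeloma cells depend, was the marker called higher, from 6.58 ± 0.09 in DMSO to 7.31 ± 0.04 in isgCtrl (SD, n = 3). So transcripts of SDC1, XBP1, PRDM1 and IRF4 were present in both groups, while 10 of the 14 tested markers had a lower mean in isgCtrl. The 7 called lower were surface receptors and CD38, and also MZB1, JCHAIN and DERL3. Summed over the list, markers reached 6480 to 6770 TPM in DMSO and 3550 to 3620 TPM in isgCtrl, most of it JCHAIN.

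Markers of T, NK and myeloid cells were low in both groups, and those of other cells were present at varied levels. Beside the counts that follow, the shares over all genes were 7.23% called higher and 6.7% called lower. Of 15 T and NK cell markers none reached the level of testing, and their sum was 0.954 to 1.29 TPM in DMSO and 0.548 to 0.886 TPM in isgCtrl, with 2 and 6 markers at 0 in all 3 samples. Of 12 myeloid markers 1 was tested and not called, and the sums were 0.916 to 2.12 and 0.414 to 3.54 TPM. Of 14 B cell markers 4 were tested, at sums of 40.4 to 48.8 and 50.5 to 53.2 TPM. BACH2, a repressor of plasma cell fate, was the marker called, at 0.81, and lost the call without any one sample other than DMSO replicate 2 (adjusted p 0.0683 to 0.0797 in limma). Of 10 erythroid and platelet markers 2 were tested and 1 was called, the haemoglobin gene HBA1, which rose from 3.49 to 12.1 TPM. HBA1 has a near-identical copy, HBA2. Of 14 stromal and epithelial markers 8 were tested, 1 called higher and 1 lower, at sums of 696 to 720 TPM in DMSO and 674 to 707 TPM in isgCtrl. Most of the sum was VIM, the filament protein vimentin, at 595 and 577 TPM, and EPCAM, an epithelial adhesion protein, at 91.1 and 74.1 TPM, neither of them called. KRT8, a keratin, rose from 0.517 to 2.25 TPM, and the endothelial marker PECAM1 fell by 0.86 but kept its call only without DMSO replicate 2 among the 6 fits that leave out 1 sample, and lost it under quantile normalization (adjusted p = 0.0522 in limma).

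The largest falls of protein-coding genes beside these were of varied function. GSTP1, a glutathione transferase that detoxifies electrophiles, read 7.52, 7.58 and 7.45 in DMSO and 1.91, 2.52 and 3.15 in isgCtrl. UCHL1, a ubiquitin hydrolase known from neurons and myeloma, read 6.85, 7.0 and 6.81 against 2.56, 2.04 and 2.86. In both genes every DMSO sample lay far above every isgCtrl sample. PCP4, a calmodulin regulator, fell by 3.89, QPCT, which forms N-terminal pyroglutamate, by 3.52, and ADM, the peptide hormone adrenomedullin, by 3.19 on the log2 scale.

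Immune regulators stood among these falls as well. PTPRCAP, a partner of the phosphatase CD45, fell from 11.2 to 0.0483 TPM, and PTPN7, a phosphatase of lymphoid cells that acts on MAP kinases, from 10.5 to 0.372 TPM. LILRB4, an inhibitory leukocyte receptor, fell by 3.21, NLRP11, a member of the NOD-like receptor family, by 3.06 and AIM2, a sensor of cytosolic DNA, by 2.96 on the log2 scale. MAGEA1, a cancer-testis antigen, fell from 11.5 to 0.175 TPM.

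Among interferon-stimulated genes and class I antigen presentation genes, calls were nearly all toward lower levels in isgCtrl, with under 50% of each list called lower. The transcription factors that interferons activate bind a promoter element with 2 GAAA repeats set apart by 2 bases. Promoter windows of RefSeq on GRCh38.p14 were searched on both strands for GAAA, any 2 bases and GAAA again. The matches are shown in capitals below for the 2 interferon-stimulated genes with the largest falls, for IFI6, which holds 3 matches, and for B2M, the invariant subunit of class I molecules. Each sequence is the 250 bases before the annotated start, on the strand of the gene.

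ISG20, chr15:88638766-88639015, plus strand: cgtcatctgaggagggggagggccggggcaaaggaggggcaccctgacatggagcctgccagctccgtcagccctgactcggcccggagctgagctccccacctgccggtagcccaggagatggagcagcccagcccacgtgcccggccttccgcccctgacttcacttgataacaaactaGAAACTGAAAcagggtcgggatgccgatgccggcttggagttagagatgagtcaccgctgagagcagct
CXCL10, chr4:76023498-76023747, minus strand: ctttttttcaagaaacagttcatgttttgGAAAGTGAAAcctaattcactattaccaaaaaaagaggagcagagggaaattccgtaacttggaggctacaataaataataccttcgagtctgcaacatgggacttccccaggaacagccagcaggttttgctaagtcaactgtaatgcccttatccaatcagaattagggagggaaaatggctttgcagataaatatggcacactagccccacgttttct
IFI6, chr1:27672193-27672442, minus strand: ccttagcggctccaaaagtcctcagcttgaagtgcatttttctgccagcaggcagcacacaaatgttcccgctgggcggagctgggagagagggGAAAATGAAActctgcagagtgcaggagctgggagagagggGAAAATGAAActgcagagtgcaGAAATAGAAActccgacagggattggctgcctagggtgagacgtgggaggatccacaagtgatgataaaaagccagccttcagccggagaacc
B2M, chr15:44711267-44711516, plus strand, 2 overlapping matches: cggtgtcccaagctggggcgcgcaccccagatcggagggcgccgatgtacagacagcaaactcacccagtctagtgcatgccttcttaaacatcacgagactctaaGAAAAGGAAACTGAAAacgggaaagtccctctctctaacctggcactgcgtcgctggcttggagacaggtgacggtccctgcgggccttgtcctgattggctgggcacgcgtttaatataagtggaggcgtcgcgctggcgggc

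Of 35 tested interferon-stimulated genes, out of 53 listed, 17 were called lower and 1 higher, against 6.7% and 7.23% of all genes, and the median log2 fold change of the list was -0.62. ISG20, an exonuclease that degrades viral RNA, read 4.46, 4.59 and 4.43 in DMSO and 0.54, 0.89 and 0.92 in isgCtrl, a log2 fold change of -3.71 (standard error 0.12, adjusted p = 5.5e-05 in limma). CXCL10, a chemokine that draws T cells, read 4.48, 4.43 and 4.41 against 1.1, 0.99 and 0.31. IFI16, a DNA sensor, fell from 14.9 to 1.62 TPM, IFI6, a mitochondrial and endoplasmic reticulum protein that restrains viruses, from 9.57 to 1.67 TPM, and MX1, an antiviral GTPase, from 3.69 to 0.42 TPM. Within the fold limit was ISG15, a ubiquitin-like modifier, at -0.07. By mean, 30 of the 35 tested members were lower in isgCtrl and 5 were higher. The isgCtrl samples lay all below the DMSO samples in 25 members and all above in 5, against 19.9% and 31.8% of all genes.

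The searched motif was in the 300-base window of 11 of the 17 interferon-stimulated genes called lower, which is 64.7%, and of 19 of the 31 tested members with a promoter in the table, which is 61.3%. Of class I genes with a promoter in the table, 3 of the 8 called lower held the motif, which is 37.5%. Of the 16 tested class I genes with such a promoter, 9 held it, which is 56.2%. The motif was in 4.38% of all 27305 promoters and in 3.98% of those of tested genes. It was in 8.31% of promoters of genes called lower and in 3.01% of those of genes called higher. These are matches of letters and no evidence of binding.

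Of 20 tested genes of class I antigen presentation, 9 were called lower and none higher, against 6.7% and 7.23% of all genes. All 20 had a lower mean in isgCtrl (median log2 fold change -0.42). B2M, the subunit that every class I molecule needs, read 12.83, 12.87 and 12.84 in DMSO and 11.47, 11.44 and 11.42 in isgCtrl. This is 7355 against 2785 TPM, a log2 fold change of -1.4 (standard error 0.05, adjusted p = 7.15e-05 in limma). The classical heavy chains fell by less, HLA-B by 0.85 and HLA-C by 0.71 on the log2 scale. HLA-F, a non-classical heavy chain, fell by 1.35 and ERAP2, which trims peptides in the endoplasmic reticulum, by 1.74. HLA-G was lower by 0.89 but lost its call without DMSO replicate 2, isgCtrl replicate 1 or isgCtrl replicate 2 (adjusted p 0.0527, 0.0723 and 0.0715 in limma). The peptide transporter subunits TAP1, at -0.43, and TAP2, at -0.19, stayed within the fold limit, though TAP1 passed it at -0.51 under median-ratio scaling and at -0.50 under quantile normalization. HLA genes are highly alike and polymorphic, so the share of reads given to each is uncertain.

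Class II genes, which present peptides to helper T cells, did not move in 1 direction. Of 13 tested, 2 were called higher and 2 lower, against 7.23% and 6.7% of all genes, or 3 and 0 under quantile normalization. The median was 0.10. CIITA, the master activator of class II transcription, rose from 13.2 to 20.7 TPM, a log2 fold change of 0.62 (standard error 0.06, adjusted p = 0.00195 in limma). HLA-DOA, part of a regulator of peptide loading, rose from 6.24 to 14.1 TPM. The classical chains HLA-DRA, at -0.13, and HLA-DRB1, at 0.10, and the invariant chain CD74, at 0.45, were not called. HLA-DQA1 and HLA-DOB were called lower, at -0.48 and -0.50. Without DMSO replicate 1 neither passed, with log2 fold changes of -0.47 and -0.46. HLA-DOB also lost its call without DMSO replicate 2 (-0.45), and HLA-DQA1 without DMSO replicate 3 (-0.46), isgCtrl replicate 2 (-0.47) or isgCtrl replicate 3 (-0.48). Under quantile normalization both calls were lost, HLA-DOB at -0.40 and HLA-DQA1 at -0.43, and CD74 was called at 0.49. The classical genes summed to 3358 to 3439 TPM in DMSO and 3462 to 3545 TPM in isgCtrl.

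Among chemokines and inflammatory calcium-binding proteins, the genes called were lower in isgCtrl. Of 14 tested chemokines and receptors 7 were lower and none higher, against 6.7% and 7.23% of all genes. CXCL9, another ligand of CXCR3, fell from 1.45 to 0.143 TPM, CXCR3 itself from 1.35 to 0.331 TPM, and CCL4, an inflammatory chemokine, from 1.94 to 0.288 TPM. Of 16 tested S100 proteins, annexins and galectins 7 were lower and none higher, with the lowest median of all lists at -0.99. LGALS1, a galectin that kills T cells, read 10.17, 10.35 and 10.21 in DMSO and 7.59, 7.63 and 7.57 in isgCtrl, a log2 fold change of -2.65 (standard error 0.07, adjusted p = 3.86e-05 in limma). S100A8 and S100A9, partners in calprotectin, fell by 2.29 and 1.00 on the log2 scale. ANXA1 was lower by 1.12 but passed with all samples and without DMSO replicate 3 only. S100A6, the calcyclin gene, varied widely, with 6.26, 7.02 and 4.86 in DMSO and 3.18, 3.57 and 5.42 in isgCtrl, and was not called at -1.99.

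Of 23 tested adhesion genes 9 were lower and 2 higher, against 6.7% and 7.23% of all genes. The 2 higher genes were both chains of collagen VI. With 1 sample left out the count of lower genes was 6 to 8. It was 6 without DMSO replicate 1, isgCtrl replicate 1 or isgCtrl replicate 3. ITGB7, the integrin beta chain through which myeloma cells hold to stroma, fell from 453 to 97.4 TPM, a log2 fold change of -2.20 (standard error 0.06, adjusted p = 4.4e-05 in limma). CD9, a tetraspanin, fell by 2.95 and SELPLG, the selectin ligand, by 1.89. COL6A1, a chain of collagen VI, read 1.4, 1.6 and 1.44 in DMSO and 3.71, 3.84 and 3.61 in isgCtrl. It was the largest rise of any gene at 2.24 (standard error 0.09, adjusted p = 9.79e-05 in limma), and its partner chain COL6A2 rose by 1.28. COL4A3, a chain of collagen IV outside the list, was lower by 0.94 on the log2 scale, a gene looked up after its values were seen.

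ITGB7 also belongs to a programme that the transcription factor MAF drives in myeloma with a MAF translocation. MAF itself was 84.4 TPM in DMSO and 111 TPM in isgCtrl, a log2 fold change of 0.39, under the fold limit. Of 10 tested genes of this list 4 were lower and 1 higher, against 6.7% and 7.23% of all genes. CCND2, a D-type cyclin, fell from 63.5 to 33.6 TPM and CCND1, present at low level, by 0.98 on the log2 scale. The gene called higher was MYC.

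Genes of the secretory pathway had lower means in isgCtrl in 35 of 37 cases. Of these 37 tested genes of the unfolded protein response and endoplasmic reticulum export, 12 were called lower and none higher. Over all genes 6.7% were called lower and 7.23% higher. In 30 of the 37, all isgCtrl samples lay below all DMSO samples, against 19.9% of all genes. The median was -0.39, and 19 were called lower under median-ratio scaling. SEC11C, a catalytic subunit of the signal peptidase, read 8.61, 8.59 and 8.65 in DMSO and 7.46, 7.43 and 7.47 in isgCtrl, a log2 fold change of -1.16 (standard error 0.05, adjusted p = 0.000125 in limma). FKBP11, a folding isomerase of secretory cells, fell by 0.84, SEC61G, a chain of the translocation channel, by 0.70 and EIF2AK3, the stress sensor PERK, by 0.80. HSPA5, the chaperone BiP, had -0.40, under the fold limit, and was called at -0.48 under median-ratio scaling. The endoplasmic reticulum stress element, CCAAT and CCACG with any 9 bases between them, was in 5 of the 35 windows of tested members, which is 14.3%, and in 2 of the 11 of members called lower, HSP90B1 and PDIA6, against 0.0916% of all promoters. HSP90B1 lost its call under quantile normalization, at -0.45.

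The rises were smaller and more scattered. EGR1, an immediate early transcription factor, read 1.65, 1.68 and 1.57 in DMSO and 3.21, 3.17 and 3.18 in isgCtrl, a log2 fold change of 1.56 (standard error 0.05, adjusted p = 7.15e-05 in limma). IL10, an anti-inflammatory cytokine, rose from 0.65 to 4.03 TPM. HEY1, an effector of Notch signalling, rose from 2.23 to 7.27 TPM and ACTA2, the smooth muscle actin, from 3.5 to 10.5 TPM. AMPD1, an AMP deaminase, rose from 18.4 to 50.2 TPM and FBP1, an enzyme of gluconeogenesis, from 1.57 to 5.53 TPM. Further rises of protein-coding genes were ZNF257, a zinc finger gene, at 1.77, CHRNA6, a nicotinic receptor chain, at 1.51, the transcription factor OSR2 at 1.5, the phosphatase PPM1H at 1.49, LDLRAD4, an inhibitor of TGF-beta signalling, at 1.42 and the corepressor CTBP2 at 1.29. ZNF257 belongs to a large family of similar genes. 

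The largest rises outside protein-coding genes rested on few samples. AL929554.2 read 1.83, 0.00 and 0.00 in DMSO and 2.65, 2.68 and 3.04 in isgCtrl, and its call held only without DMSO replicate 1 among the fits with 1 sample left out. SLC7A5P2, a pseudogene near-identical to part of SLC7A5, was higher by 1.57 and passed only without DMSO replicate 3. AC000093.1 was higher by 1.31 and lost its call without isgCtrl replicate 1 (adjusted p = 0.0583 in limma) or isgCtrl replicate 3 (0.0568).

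Growth factor response genes were called higher more often than lower. Of 19 tested AP-1 and immediate early genes 5 were higher, or 4 without any one sample but isgCtrl replicate 2. Another 2 were lower, and over all genes 7.23% were called higher and 6.7% lower. MYC, which drives growth and ribosome production, rose from 218 to 397 TPM, a log2 fold change of 0.86 (standard error 0.06, adjusted p = 0.000831 in limma). DUSP2, a phosphatase that switches off MAP kinases, rose by 0.95, IER2 by 0.67 and FOS by 0.59. FOS kept its call only without isgCtrl replicate 2 among the fits with 1 sample left out (adjusted p 0.0581 to 0.0846 in limma in the others). ATF3, a stress-induced repressor, was lower by 0.86 but lost its call without DMSO replicate 1, DMSO replicate 2, isgCtrl replicate 1 or isgCtrl replicate 3 (adjusted p 0.0813 to 0.106 in limma). Of 14 tested genes of ERK feedback 4 were higher and 2 lower. With all samples in, both lists exceeded the shares of all genes in each direction. ETV4, an ETS factor downstream of ERK, rose by 0.91, EPHA2, an ephrin receptor, by 0.81 and DUSP6, the ERK phosphatase, by 0.68, and DUSP5, a nuclear ERK phosphatase, fell by 0.77. DUSP6 lost its call without isgCtrl replicate 1, 2 or 3 (adjusted p 0.0508, 0.0587 and 0.0503 in limma).

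Of 25 tested NF-kB genes 2 were higher and 3 lower, against 7.23% and 6.7% of all genes. In both directions together 20% of the list was called, against 13.9% of all genes. TNFAIP3, the feedback inhibitor A20, rose from 26.6 to 39.6 TPM and CD83 from 0.705 to 1.5 TPM, while the receptor CD40 fell from 1.36 to 0.11 TPM. Counts of this list ran from 2 to 4 in each direction when single samples were left out, with 4 higher without isgCtrl replicate 1. TNFAIP3 lost its call under quantile normalization, at 0.48, which left 1 higher.

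Few nuclear genes for mitochondrial proteins passed the fold limit. Of 13 mitochondrially encoded mRNAs 2 were called lower, which is 15.4% against 6.7% of all genes. They were MT-ND4, by 0.53, and MT-CO1, by 0.51 on the log2 scale, and 10 of 13 mRNAs had a lower mean in isgCtrl. In 7 of the 13 all isgCtrl samples lay below the DMSO samples, against 19.9% of all genes, and MT-CO1 lost its call under quantile normalization, at -0.47. Of 78 mitochondrial ribosomal protein genes 2 were higher and 1 lower. Of them MRPL10 rose by 0.61, and MRPL48, at -0.51, and MRPL49, at 0.51, lost their calls without DMSO replicate 2 (log2 fold changes -0.47 and 0.45). MRPL48 also lost it without isgCtrl replicate 1 or isgCtrl replicate 2, each at -0.46, and MRPL49 without DMSO replicate 3 (0.45) or isgCtrl replicate 1 (0.46). MRPL49 was not called under median-ratio scaling or quantile normalization, at 0.42 in both, and median-ratio scaling gave 1 higher and 2 lower. The median of this list was 0.04, and -0.05 under median-ratio scaling. Of 76 nuclear genes of oxidative phosphorylation 4 were lower, among them the complex I subunits NDUFA1, at -0.56, and NDUFB3, at -0.53, and the ATP synthase subunit ATP5PD, at -0.51. NDUFB9, also of complex I, was higher at 0.53, but not called under median-ratio scaling, at 0.44, where 7 of these genes were lower and 0 higher. In 38 of the 76 all isgCtrl samples lay below the DMSO samples, against 19.9% of all genes. The counts called as deposited are below the 6.7% and 7.23% of all genes for the nuclear lists.

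The genes that ATF4 controls, many of which rise when mitochondria or amino acid supply fail, went both ways. ATF4 was 364 TPM in DMSO and 437 TPM in isgCtrl, a log2 fold change of 0.26. Of 38 tested members 7 were higher, among them YARS1, a tRNA ligase, at 0.73, TRIB3, a pseudokinase, at 0.60 and the amino acid transporter gene SLC7A5 at 0.56. Over all genes 7.23% were called higher and 6.7% lower. The 4 lower members included ASNS, the asparagine synthetase, at -0.80, PSAT1 of serine synthesis at -0.54 (-0.47 without DMSO replicate 1, which lost the call) and DDIT3, the stress factor CHOP, at -1.26. DDIT3 read 4.35, 4.45 and 3.74 in DMSO and 2.43, 2.89 and 3.45 in isgCtrl and lost its call without DMSO replicate 1, DMSO replicate 2, isgCtrl replicate 1 or isgCtrl replicate 2 (adjusted p 0.0595 to 0.0751 in limma). Higher members numbered 3 under median-ratio scaling or quantile normalization, where SLC7A5 lost its call at 0.48, and 4 without isgCtrl replicate 3, and lower ones 1 without DMSO replicate 1 and 2 without DMSO replicate 2 or isgCtrl replicate 1.

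Few genes of damage signalling and cell death were called. They made up 3.03% of the DNA damage list and 5.41% of the cell death list, against 13.9% of all genes. CDKN1A, the cell cycle inhibitor p21, was 77.8 TPM in DMSO and 56.1 TPM in isgCtrl, a log2 fold change of -0.47, just inside the limit. It was beyond the limit and called under median-ratio scaling, at -0.55, and quantile normalization, at -0.52. MDM2, a ubiquitin ligase, was 15.7 and 14.6 TPM and was not called. Of 33 genes of the DNA damage response, which Cas9 cuts can engage, 1 was higher, PRKDC, the kinase of end joining, at 0.64, and the median was 0.07 as deposited and -0.01 under median-ratio scaling. Of 37 cell death genes 2 were lower, the death receptor TNFRSF10B (-0.62) and the inflammatory caspase CASP1 (-0.50), and the latter lost its call without DMSO replicate 1 or isgCtrl replicate 2 (log2 fold changes -0.42 and -0.48). Under median-ratio scaling 5 were lower, as under quantile normalization. That list's median was 0.04 as deposited and -0.05 under median-ratio scaling.

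Of the S phase list 9.3% were called, all higher, against 7.23% of all genes. Of the G2/M list 3.77% were called, all lower, against 6.7% of all genes. Of 43 S phase genes 4 were higher, CDCA7 at 0.57, MCM2 at 0.51, UNG at 0.50 and MCM4 at 0.49, and 2 genes of the list were called without isgCtrl replicate 3. MCM4 also lost its call without DMSO replicate 1 (0.46) and UNG without DMSO replicate 3 (0.48). Under median-ratio scaling and under quantile normalization only 1 gene of the list was higher, and MCM2, UNG and MCM4 lost their calls, at 0.42, 0.42 and 0.41 in the former. Of 53 G2/M genes 2 were lower, CDK1, the mitotic kinase, at -0.53 and its partner CKS2 at -0.50. MKI67 had 0.32 and TOP2A -0.32, both under the fold limit. Of 24 replication-dependent histone genes 1 was higher, H2AC16 at 1.03, and 2 were lower, shares near the 7.23% and 6.7% of all genes, H2BC12 at -0.96 and H2AC6 at -0.51, the last of which lost its call without DMSO replicate 1 (-0.46), DMSO replicate 2 (-0.47) or isgCtrl replicate 2 (-0.43). The median of the histone list was 0.04 and turned to -0.03 under median-ratio scaling.

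PRMT1 itself, the gene that the study targets in other cells, was not called between the controls. It lies at chr19:49675786-49689029 of GRCh38 and read 9.31, 9.36 and 9.39 in DMSO and 9.76, 9.76 and 9.73 in isgCtrl. The samples did not overlap, and the log2 fold change of 0.40 (standard error 0.05, adjusted p = 0.00364 in limma) lay under the limit of 0.48. In TPM the levels were 653 ± 18.3 and 860 ± 9.15 (SD, n = 3). Of 11 tested arginine methyltransferase genes and partners 2 were called higher and none lower, against 7.23% and 6.7% of all genes. They were CARM1, another type I enzyme, at 0.68 and WDR77, the partner of PRMT5, at 0.60, and PRMT5 had 0.29. By mean, 7 of the 11 were higher in isgCtrl and 4 lower. Under median-ratio scaling or quantile normalization 1 member of the list was called lower.

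Metabolic genes showed falls at few steps. Of 35 tested glycolysis and hypoxia-responsive genes 6 were lower and 1 higher, against 6.7% and 7.23% of all genes. ENO2, the neuronal enolase, fell from 18.2 to 2.71 TPM, ANKRD37, a hypoxia-responsive gene, from 10.2 to 3.86 TPM and HK1, a hexokinase, from 1.86 to 0.523 TPM, beside ADM above. Of 32 tested sterol and fatty acid genes 4 were lower and none higher, against the same shares. They were ACSS2, an acetyl-CoA synthetase, at -1.02, ELOVL6, an elongase, at -1.14, FADS2, a desaturase, at -0.69 and IDI1 of the sterol pathway at -0.52. ELOVL6 lost its call without any one sample (adjusted p 0.0551 to 0.109 in limma), FADS2 and IDI1 without isgCtrl replicate 2 (adjusted p = 0.0503 in limma and log2 fold change -0.46), FADS2 also without DMSO replicate 1 or isgCtrl replicate 3 (0.056 and 0.055), and this left 1 gene without isgCtrl replicate 2 and 2 without DMSO replicate 1 or isgCtrl replicate 3.

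For the lists of this paragraph, the shares over all genes were 7.23% called higher and 6.7% called lower. Of 16 tested heat shock genes 2 were higher, HSPB1 at 0.59 and the transcription factor HSF1 at 0.50. HSF1 stood at 0.47 without isgCtrl replicate 3 and lost its call under median-ratio scaling (0.42) and quantile normalization (0.47). Of 79 cytosolic ribosomal protein genes 1 was called, RPL8, from 5214 to 7624 TPM, which was not called under median-ratio scaling at 0.46, and the list median was -0.04. Of 18 tested cancer-testis antigens 5 were lower and none higher, MAGEA1 above, GAGE2A by 1.58, SSX2 by 1.32 and PAGE5 by 0.84 among them, though the list median was 0.10. These families hold near-identical copies, and SSX2 was listed at 0 in all 3 isgCtrl samples. Of 11 tested RNAs with no or only a short poly(A) tail, whose recovery depends on library preparation, 3 were called lower, none higher, and 4 had a higher mean. The called RNAs were RN7SL1, an RNA of the signal recognition particle, from 562 to 230 TPM, its near-identical copy RN7SL2 from 1333 to 718 TPM and the mitochondrial rRNA MT-RNR2 from 6621 to 4431 TPM. The list's median was -0.25, and -0.06 without immunoglobulin and mitochondrial genes. Their part in the other results was not tested.

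The changes were not spread evenly over chromosomes. Chromosome 8 had the highest median log2 fold change of all, 0.23 over 402 tested genes, and 77 of them, 19.2%, were called higher against 7.23% of all genes. Median differences of the 3 isgCtrl samples from the DMSO mean spanned 0.19 to 0.24 there, and those of the DMSO samples -0.02 to 0.02. With its genes in order and cut into 3 stretches of 134 genes, a cut made after the values were seen, the first stretch had a median of 0.00037 with 16 genes higher and 19 lower. The second had 0.29 with 23 higher and 7 lower, and the last had 0.37 with 38 higher and 1 lower. Under median-ratio scaling these medians were -0.07, 0.21 and 0.29.

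Several genes named above lie there, namely MYC, PRKDC, MCM4, NDUFB9, HSF1, RPL8, HEY1, OSR2 and CHRNA6 among the rises and TNFRSF10B among the falls. So does PABPC1, a poly(A) binding protein of general translation, which rose from 549 to 1098 TPM. Runs of 25 neighbouring genes were scanned along all chromosomes, 11152 runs in all, and 5% of their medians lay below -0.14 and 5% above 0.29. The highest was the run from TSNARE1 to PLEC on chromosome 8, at 0.49 with 12 genes higher and none lower. On the same chromosome the run from PTK2B to PPP2CB had -0.37 with 8 lower and none higher. The lowest of all was on chromosome X, from EIF4A1P10 to TCEAL1, at -0.48 with 8 lower and none higher. Chromosome X also had the lowest median of any chromosome, -0.07, with 46 of 395 genes lower, 11.6% against 6.7% of all genes. Chromosomes 19, 22, 20 and 16 had medians of 0.19, 0.16, 0.15 and 0.15. Neighbouring genes are not independent, and these runs were picked as extremes and given no test.

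In the 6 samples that took no part in these calls the values ran mostly the same way. The iPRMT1 and MS023 groups also differ by the loss of PRMT1 and by the inhibitor, so this contrast is no repeat of the first. Of 12858 genes tested there, 38.6% were called. The split was 3086 higher and 1871 lower in iPRMT1, and 1982 and 2562 under median-ratio scaling. Of the 915 genes higher in isgCtrl, 894 were tested there, 799 had a higher mean in iPRMT1 than in MS023, which is 89.4% against 62.7% of all genes tested in both, and 532, which is 59.5%, were called higher, against 24% of all genes. Of the 848 lower genes 806 were tested, 722 had a lower mean and 571, which is 70.8%, were called lower, against 14.6% of all genes. Opposite calls numbered 11 and 19. In the same 3 stretches of chromosome 8 the medians there were -0.07, 0.54 and 0.52, against 0.15 over all genes tested there. By whole chromosome, chromosome 13 had a higher median in iPRMT1 minus MS023 (0.43) than chromosome 8 (0.37). In isgCtrl minus DMSO the median of chromosome 13 was 0.03. Over the 12263 genes tested in both, Pearson's r of the log2 fold changes was 0.62 and Spearman's rho was 0.49, a description across genes that are not independent.

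Each group can also be placed by level. For 84.2% of the 1763 called genes the iPRMT1 mean lay nearer to isgCtrl than to DMSO, against 65.8% of genes not called, and for 17.2% the MS023 mean did, against 39.3% of genes not called. Exceptions were found. S100A8 averaged 5.53 in DMSO and 3.24 in isgCtrl but 5.72 in MS023 and 5.73 in iPRMT1. IL10 averaged 0.72 in DMSO and 2.33 in isgCtrl, and 3.75 in MS023 and 1.79 in iPRMT1. GAGE2A was at 4.29 in iPRMT1 and at 1.76 in DMSO, 0.18 in isgCtrl and 2.03 in MS023. These are group means of log2(TPM+1) set side by side.

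**Figure D1:**
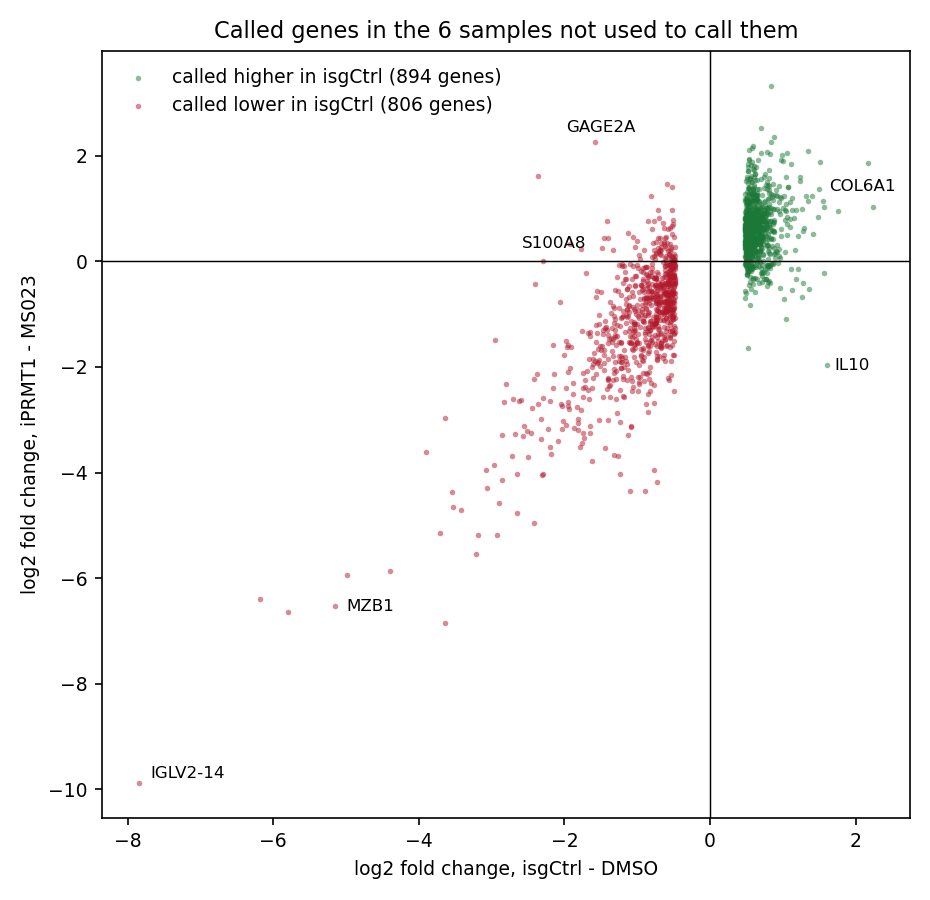
Log2 fold change of called genes in isgCtrl minus DMSO (horizontal axis) and in iPRMT1 minus MS023 (vertical axis), for the 894 genes called higher (green) and the 806 called lower (red) that were tested in both. Most points lie in the quadrants of shared sign, and IL10, S100A8 and GAGE2A are marked as exceptions.

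The chance of a call moved with properties of the genes. With genes split into 4 equal groups by GC content of the annotated transcript, the share called higher was 2.39% in the lowest group and 5.6%, 8.77% and 11.5% in the next ones, and the share called lower ranged from 6.52% to 7.44%. With the same kind of split by mean level, 13.1% of the lowest genes were called lower and 6.35% higher, while in the other groups falls made up 3.7% to 5.88%. By transcript length, 10.3% of the shortest were called lower and 4.88% of the longest. Among lncRNAs 12% were called higher, against 6.94% of protein-coding genes. The part of these properties in the results was not tested.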

How the data were processed

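RNA of 12 JJN3 samples was sequenced as read pairs. Trimmomatic trimmed the reads, STAR mapped them in 2 passes (hg38, GENCODE V35), Salmon estimated abundance, and the authors deposited log2(TPM+1) per gene, a log2 scale with a pseudocount of 1. These values were used as they stand. Depth per sample is unknown from TPM, and no count model was used.

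Groups came from the sample titles. Genes with a group mean above 1 in either group were fitted with limma 3.58.1 in R 4.3.3 (eBayes without trend) on the 6 samples of a comparison, with Benjamini-Hochberg adjustment over all genes tested. A gene was called where the adjusted p was below 0.05 and the log2 fold change beyond 0.48 in size, as in the study's methods. Of 59276 symbols, 37874 matched GENCODE v44 on GRCh38, the source of positions, transcript lengths and GC content, and 314 of the symbols matched more than 1 gene ID. Promoter sequences are from RefSeq, 250 bases before to 50 after each start.

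The comparison and the gene lists were chosen with earlier results of these data known. Genes named are the 15 largest rises and falls among called protein-coding genes with groups that do not overlap (XIST and Y-linked genes left out), the 3 largest of other genes in each direction, up to 4 called members of each list, and PRMT1, IGLC1, CIITA, MAF, ATF4, CDKN1A, MDM2, JCHAIN, IGHA1 and IGKC. Further genes and list members were added after their values were seen. Some results are not reported here. In simulated data of 12661 genes, 78% of 100 genes changed by 1 and 91% of 100 changed by 2 on the log2 scale were recovered, with 10 false calls.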

Additional observations from a re-analysis of the deposited data

How the results depend on the processing

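Counts of 1763 called genes, 915 higher and 848 lower, were recomputed under each alternative. No gene called in both changed direction under any of them. Asking for a value above 1 in every sample left 11000 genes, of which 848 were higher and 516 lower. Median-ratio scaling gave 561 higher and 1049 lower, and a fold limit of 1 gave 369 called, 55 higher and 314 lower. Totals were 1841 with a trend in eBayes, 1856 with all 12 samples in one fit, 1481 with all genes above 0 adjusted together, 1966 with a pseudocount of 0.1, 1661 after quantile normalization and 2226 at an adjusted p under 0.25. Without immunoglobulin and mitochondrial genes, an alternative added after seeing the data, the total was 1718. Leaving out 1 sample at a time gave 1618 to 1858 called, 807 to 939 higher and 740 to 919 lower. In iPRMT1 against MS023, 4957 genes were called, 4746 to 5004 with 1 sample left out and 4544 under median-ratio scaling, 1982 of them higher and 2562 lower. With the replicate number as a block, 1584 genes were called, 1527 of them shared with the fit without it, and 4913 in iPRMT1 against MS023. Samples of the same number had correlations of -0.228 to -0.0319 between their deviations from the group means, so the numbers were not taken as pairs. IGLC1 stayed between -6.23 and -6.10 with 1 sample left out, was -6.26 under median-ratio scaling, and the 8 summed lambda genes gave -3.82. PRMT1 stayed at 0.31 to 0.45, under the fold limit, in every alternative run. IGKC changed sign to -0.08 under median-ratio scaling and MDM2, at -0.18 to 0.08 with 1 sample left out, to 0.08 without DMSO replicate 1, both uncalled. The causes of these shifts were not tested. The depth of each sample is unknown beyond the stated minimum, so absence of low transcripts in isgCtrl cannot be told from a level under detection.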
